A study of Mus musculus with 6 samples.

Results

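The genes described here make cholesterol and long-chain fatty acids. They are 36 genes chosen by symbol, all 36 of which were found among the 21374 genes of the table: 17 enzymes of the sterol pathway, 13 enzymes of fatty acid synthesis, elongation and desaturation, 5 regulators of the pathways and the sterol carrier gene Stard4. They were measured by bulk RNA sequencing of distal colon next to tumours in male C57BL/6 mice, 3 libraries labelled wild type and 3 labelled Otud1-/-. All mice received azoxymethane, a colon carcinogen, on day 0 at 6 weeks of age, then dextran sulfate sodium (1.5%), an agent that damages the colon epithelium, in 3 cycles of 4 days, each with 14 days of water. Tissue was taken on day 81, at 18 weeks, after the tumours had been cut away. The labels give neither the deleted part of Otud1 nor the cells that lack it, and they do not tie a library to an animal. The p-values therefore reflect only how these 6 libraries vary, some of which can be technical.

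Cells build cholesterol from acetyl-CoA through mevalonate, isoprenoids, squalene and lanosterol, and build fatty acids from the same acetyl-CoA through malonyl-CoA. The transcription factors SREBP-2 (gene Srebf2) and SREBP-1 (gene Srebf1) drive the sterol genes and the fatty acid genes respectively, with overlap. When sterols are plentiful, the INSIG proteins hold the escort protein SCAP and its SREBP in the endoplasmic reticulum and sterol genes are transcribed less. The liver X receptors raise Srebf1 and Scd1 when oxysterols are plentiful.

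Values are normalised read counts, that is reads of a gene divided by a scale factor of its library, and the libraries held 15300937 to 19406407 reads. Changes are Otud1-/- minus wild type by label, as log2 of the value plus 1, and a gene is called at an adjusted p under 0.05 (limma, Benjamini-Hochberg over 21281 tested genes). Otud1 itself went against the labels, at 111, 45.1 and 48.9 under the wild type label against 141, 150 and 208 under the Otud1-/- label (change 1.37 ± 0.35 SE, limma, adjusted p = 0.0934), so every direction below is one between libraries as labelled. The libraries labelled wild type 1 and Otud1-/- 1 stood apart on the first principal component, at -86.5 and 83.3 against -25.8 to 28.2 for the other libraries. Changes without both are given for the members whose direction they turn or whose value they move by over 1.5 times, an alternative added after the data were seen.

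One sterol gene fell, 1 fatty acid gene rose, and the other 34 members did not pass the test. Msmo1, which encodes the methylsterol monooxygenase that acts on lanosterol derivatives, fell to 0.59 times its wild type level. Fads1, which encodes the delta-5 desaturase that makes arachidonic acid, rose 1.98-fold. Of all tested genes 0.949% were called, 0.282% as higher and 0.667% as lower (60 and 142 genes; 310 and 103 with total reads as the scale, 823 and 113 with epithelial markers, 61 and 92 with quantile normalisation, 202 and 192 without both libraries numbered 1). With edgeR on reads recovered from the values none of the 36 was called, as against 0.37% of the genes it tested (0.0896% higher and 0.281% lower), and DESeq2 called 1 higher and 3 lower, where it called 3.98% of its genes higher and 4.42% lower (8.4% in all). At an unadjusted p under 0.05 there were 2 higher and 9 lower members (limma), beside 9.5% and 9.97% of all genes. In bulk tissue fewer cells of a type and less RNA per cell cannot be told apart.

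**Figure D1:**
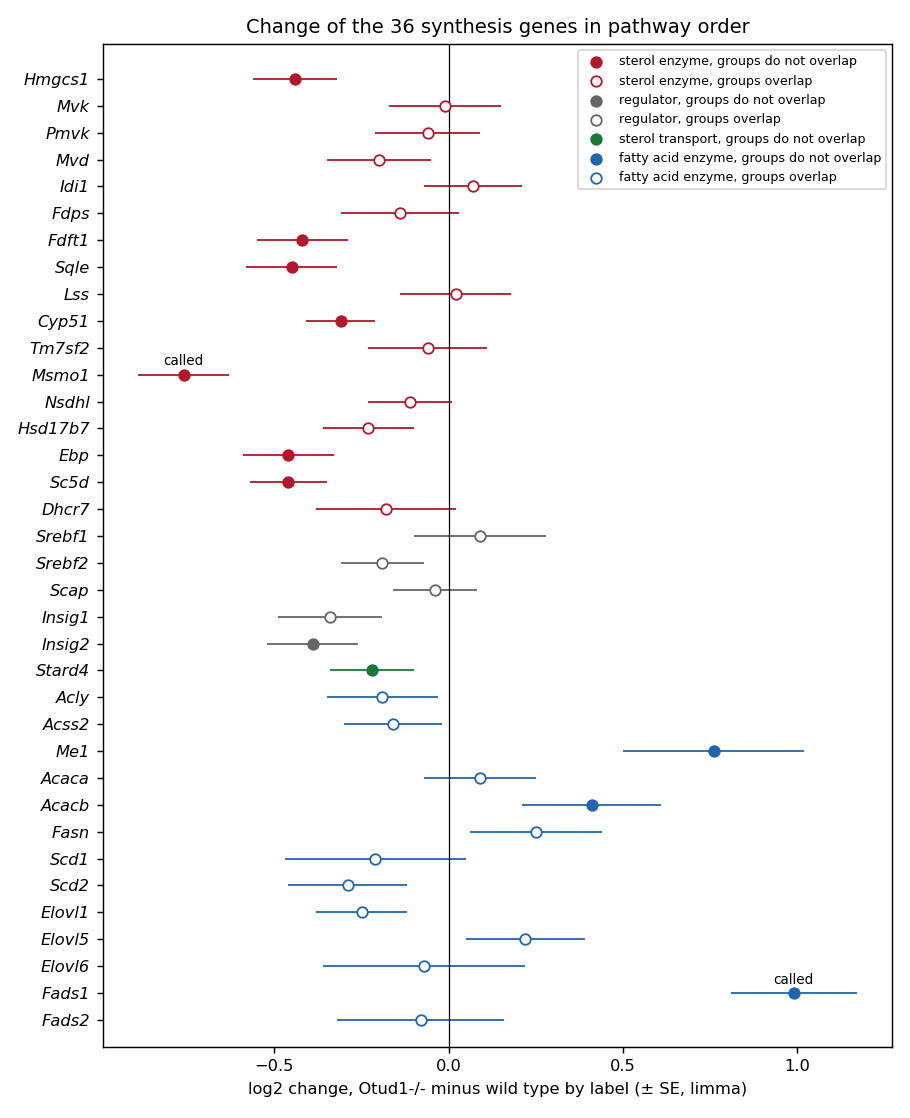
Log2 change of each of the 36 members (x axis, Otud1-/- minus wild type by label, bars ± SE from limma) in pathway order (y axis). Filled points are genes whose 3 libraries of one label all lie on one side of the 3 of the other, and the 2 called genes are marked; filled sterol points all lie left of 0 and filled fatty acid points all lie right of it.

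Among the 17 sterol enzymes, 7 were lower in every Otud1-/- library than in any wild type library and none was higher in this way. That is 41.2% of them. Over all tested genes 13.3% were lower with no overlap, and among the 9151 genes at least as abundant as the least abundant member it was 22.8%. Either direction of separation was found for 26.3% of all genes. The 7 were Hmgcs1, Fdft1, Sqle, Cyp51, Msmo1, Ebp and Sc5d. Without both libraries numbered 1 there were 11, beside 21.6% of all genes lower in this way, and after scaling the libraries to equal pan-epithelial markers there were 2, beside 2.63% (alternatives added after the data were seen). The median change of the branch was -0.20, with 15 of 17 negative, beside a median of 0.02 over all genes.

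Msmo1 (chromosome 8, 64718139 to 64733792, GRCm38) had 3858, 3990 and 4463 normalised reads in wild type 1, 2 and 3, against 2101, 2583 and 2595 in Otud1-/- 1, 2 and 3. Every Otud1-/- library lay far below the lowest wild type library. The change was -0.76 ± 0.13 SE (limma, adjusted p = 0.0352). Its call was kept without Otud1-/- 1 or 2, and lost (limma, adjusted p) when wild type 1 (0.113), 2 (0.132) or 3 (0.173) or Otud1-/- 3 (0.0642) was left out. With edgeR the adjusted p was 0.0554. After quantile normalisation the change was -0.55 (adjusted p = 0.0809), and after scaling the libraries to equal pan-epithelial markers it was -0.42 (adjusted p = 0.197).

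Sc5d, a sterol desaturase acting late in the pathway, had 1978, 2142 and 2154 normalised reads under the wild type label against 1431, 1636 and 1502 under the Otud1-/- label. These groups were tight and separate, yet the change of -0.46 ± 0.11 SE did not pass (limma, adjusted p = 0.0758). It passed with DESeq2 (0.0185). Ebp, the sterol isomerase that acts just before it, had 1471, 1267 and 1498 against 911, 1014 and 1173. Here wild type 2 and Otud1-/- 3 lay close together without crossing, and the change was -0.46 ± 0.13 SE (limma, adjusted p = 0.113).

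The same separation was seen at the entry of the pathway and around squalene. Hmgcs1 encodes the synthase that makes HMG-CoA near the entry of the pathway. It had 6510, 6257 and 6606 normalised reads under the wild type label against 4456, 5447 and 4463 under the Otud1-/- label, with Otud1-/- 2 nearest to wild type. The change was -0.44 ± 0.12 SE (limma, adjusted p = 0.108; 0.0417 with DESeq2). Sqle, squalene epoxidase, a second control point of the pathway, had 2728, 2607 and 2945 against 1753, 2299 and 2023. Its groups did not overlap (change -0.45 ± 0.13 SE, limma, adjusted p = 0.11), and again Otud1-/- 2 was the highest of its group.

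Fdft1, squalene synthase, ranged from 3554 to 4709 in wild type and from 2911 to 3233 in Otud1-/- (change -0.42). Cyp51, the lanosterol demethylase, ranged from 3557 to 3871 and from 2813 to 3094 (change -0.31). In Fdft1, 18.3% of the exon bases are shared with Ctsb on the opposite strand, and in Hmgcs1 12.1% with an antisense model, Gm48342. In the regulator gene Scap 13.2% are shared with the model 5830462I19Rik, also on the opposite strand. The strand setting of the counting is not given in the sources used here, so reads in those stretches cannot be told apart.

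Members between these points lay closer to 0. Of the 6 genes up to farnesyl pyrophosphate, 5 beside Hmgcs1 overlapped between the labels: the mevalonate kinases Mvk (-0.01) and Pmvk (-0.06), the decarboxylase Mvd (-0.20), the isomerase Idi1 (0.07) and the farnesyl pyrophosphate synthase Fdps (-0.14). Fdps shares 26.7% of its exon bases with the model Gm43738 on the same strand, and Tm7sf2, a later gene, shares 12.1% with Vps51 on the same strand. Of the 11 genes from squalene on, 6 did not overlap and 5 did: the lanosterol synthase Lss (0.02), the reductase Tm7sf2 (-0.06), the demethylation enzymes Nsdhl (-0.11) and Hsd17b7 (-0.23), and Dhcr7 (-0.18), which makes cholesterol from its immediate precursor. The median change was -0.10 over the 6 early genes and -0.31 over the 11 later ones, and this difference was not tested. Nsdhl and Hsd17b7 act after Msmo1 in the removal of the same methyl groups, and no test compared them with it. Without both libraries numbered 1 the change was -0.35 for Tm7sf2, -0.24 for Nsdhl, -0.06 for Mvk and 0.08 for Lss, and the median of the 17 sterol enzymes was -0.30.

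Promoter windows were read for the sterol genes because the SREBP proteins act together with NF-Y, which binds CCAAT, and Sp1, which binds GC boxes. RefSeq windows (GRCm38.p6) were found for 29 of 36 members, and the 250 bases before each start were searched on both strands. No window was found for Fdps, Fdft1, Sqle, Stard4, Fads1, Scd1 and Scd2, so the called gene Fads1 is not covered. A gene with several windows counts if any of them holds the letters. Dhcr7 holds CCAAT in 1 of its 3 windows, all of whose 250 bases are exon bases. All 250 bases of the only window of Idi1, and of that of Tm7sf2, are exon bases too. CCAAT was present in 14 of 14 sterol enzymes with a window, in 4 of 5 regulators and in 6 of 10 fatty acid enzymes, against 37.5% of 27025 genes. GGGCGG, the Sp1 box, was present in 13 of 14 sterol enzymes and 5 of 10 fatty acid enzymes, against 35.4% of genes. The core of a sterol regulatory element, TCACNCCAC, was found in 1 member, Hmgcs1, and in 1.22% of genes. By the GENCODE models, whose starts can differ from those of RefSeq, windows of 20 of the 29 members hold exon bases, 214 of them in Msmo1, so a window before the RefSeq start can lie within the gene as counted. Matches of ATTGG and GGGCGG can share bases at their ends, the windows were not matched for base composition, and a match is a description of letters and not a bound site. The windows below, 5′ to 3′ on the strand of the gene, hold no exon base and show 3 sterol enzymes that were lower without overlap beside 2 fatty acid enzymes, 1 with and 1 without CCAAT. Capitals mark CCAAT on either strand (ATTGG on the opposite one) and, in Hmgcs1, TCACCCCAC.
Hmgcs1 (chr13:119690101-119690350, plus strand): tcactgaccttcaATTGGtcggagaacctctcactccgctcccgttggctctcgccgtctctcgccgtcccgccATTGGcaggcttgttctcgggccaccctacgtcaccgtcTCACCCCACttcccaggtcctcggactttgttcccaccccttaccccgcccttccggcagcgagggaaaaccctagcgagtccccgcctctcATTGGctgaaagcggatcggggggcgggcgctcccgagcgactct
Ebp (chrX:8193513-8193762, minus strand): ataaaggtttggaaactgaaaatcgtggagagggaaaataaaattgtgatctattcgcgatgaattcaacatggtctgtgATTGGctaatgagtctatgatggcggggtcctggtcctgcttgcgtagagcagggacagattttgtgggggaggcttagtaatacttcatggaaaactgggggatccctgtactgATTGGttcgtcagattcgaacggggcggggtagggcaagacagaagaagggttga
Sc5d (chr9:42264301-42264550, minus strand): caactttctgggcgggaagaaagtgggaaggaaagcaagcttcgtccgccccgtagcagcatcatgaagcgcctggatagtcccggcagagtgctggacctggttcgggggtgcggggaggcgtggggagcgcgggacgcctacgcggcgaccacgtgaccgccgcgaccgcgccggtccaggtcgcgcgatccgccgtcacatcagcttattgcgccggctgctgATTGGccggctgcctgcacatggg
Fasn (chr11:120824548-120824797, minus strand): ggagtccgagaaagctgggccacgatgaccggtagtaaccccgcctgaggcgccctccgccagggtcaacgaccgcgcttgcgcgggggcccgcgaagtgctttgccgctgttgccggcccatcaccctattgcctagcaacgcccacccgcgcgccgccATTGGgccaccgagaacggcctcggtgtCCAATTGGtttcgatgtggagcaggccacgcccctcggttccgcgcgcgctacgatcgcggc
Acly (chr11:100528001-100528250, minus strand): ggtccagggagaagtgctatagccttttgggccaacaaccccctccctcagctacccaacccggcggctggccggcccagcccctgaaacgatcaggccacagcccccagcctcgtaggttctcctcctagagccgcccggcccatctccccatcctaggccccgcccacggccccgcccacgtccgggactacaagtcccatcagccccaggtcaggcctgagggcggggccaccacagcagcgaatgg
In Hmgcs1 3 boxes lie on the opposite strand, beginning 237, 176 and 45 bases before the start, and the sterol element core begins 137 bases before it. Ebp has 2 boxes, at 170 and 55 bases, and Sc5d has 1, at 24 bases. Fasn, whose values overlapped between the labels, has 3, at 90, 62 and 59 bases, of which the last 2 share bases on opposite strands.

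The regulators did not pass the test. Srebf2 had 6118, 6358 and 6030 normalised reads under the wild type label against 6062, 5208 and 5033 under the Otud1-/- label. Otud1-/- 1 lay inside the wild type range and the other 2 below it (change -0.19 ± 0.12 SE, limma, adjusted p = 0.408; exact two-sided permutation p = 0.2, where 0.1 is the smallest possible). Srebf1 had 1975, 2428 and 2929 against 3281, 2186 and 2349. Its groups overlapped widely, with the highest value in Otud1-/- 1 and the lowest in wild type 1 (change 0.09 ± 0.19 SE, limma, adjusted p = 0.841; exact two-sided permutation p = 0.7), and without both libraries numbered 1 its change was -0.23. These totals do not separate the isoforms of Srebf1, and an mRNA level does not measure the cleaved, active protein.

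Insig1 and Insig2 encode the retention proteins, and Insig1 is itself an SREBP target. Insig2 had 1113, 994 and 950 normalised reads under the wild type label against 681, 841 and 806 under the Otud1-/- label, without overlap (change -0.39 ± 0.13 SE, limma, adjusted p = 0.139). Insig1 had 1578, 1825 and 2001 against 1267, 1730 and 1297, where Otud1-/- 2 lay within the wild type range (change -0.34 ± 0.15 SE, limma, adjusted p = 0.255). Scap, the escort, had 1250, 1282 and 1537 against 1306, 1397 and 1250 (change -0.04 ± 0.12 SE, limma, adjusted p = 0.898), so its groups overlapped. Stard4, a carrier that moves cholesterol between membranes, had 2418, 2617 and 2677 against 1938, 2352 and 2364. It was lower in every Otud1-/- library, by a small margin (change -0.22 ± 0.12 SE, limma, adjusted p = 0.351). Without both libraries numbered 1 the change was -0.24 for Insig2 and -0.09 for Scap.

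**Figure D2:**
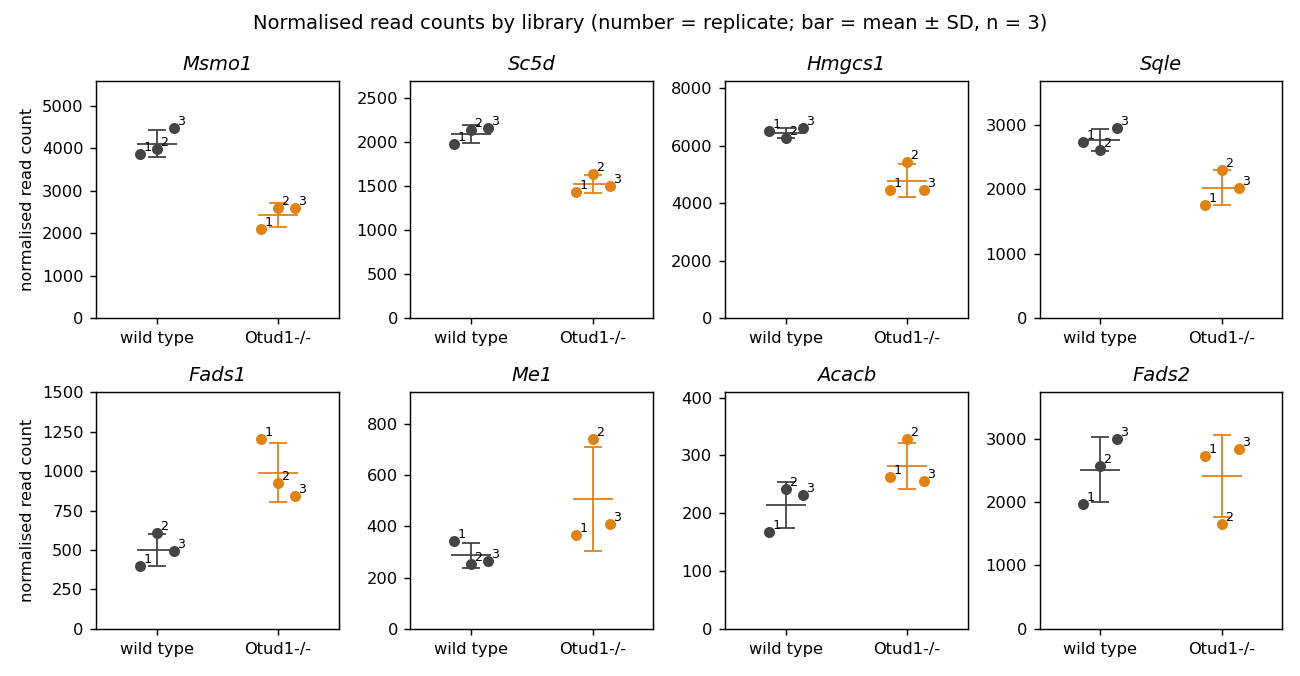
Normalised read counts (y axis, each from 0) of 4 sterol enzymes (top) and 4 fatty acid enzymes (bottom) in the 3 libraries of each label (x axis; numbers are replicates, bars the mean ± SD). The sterol enzymes are lower in all 3 Otud1-/- libraries, Fads1, Me1 and Acacb are higher, and Fads2 overlaps.

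In the fatty acid branch 3 of 13 enzymes, Fads1, Me1 and Acacb, were higher in every Otud1-/- library than in any wild type library and none was lower in this way, which is 23.1% beside 13% of all genes that were higher with no overlap (10.7% of the genes at least as abundant). The count was also 3 without both libraries numbered 1, where 22.9% of all genes were higher in this way, and after scaling to epithelial markers, where 23.8% were. The median change was -0.07, with 6 positive and 7 negative. The median sums up values on both sides of 0, from -0.29 to 0.99, and only Acaca, Elovl6 and Fads2 lay within 0.1 of 0.

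Fads1 (chromosome 19, 10182888 to 10196877) had 402, 608 and 495 normalised reads in wild type 1, 2 and 3, against 1203, 927 and 844 in Otud1-/- 1, 2 and 3. All Otud1-/- libraries exceeded the highest wild type library, and Otud1-/- 1 was the highest. The change was 0.99 ± 0.18 SE (limma, adjusted p = 0.0477), close to the threshold. It was 0.69 (adjusted p = 0.0486) without the 2 libraries numbered 1, and the call was lost without wild type 1, 2 or 3 (0.148, 0.0944 and 0.182), without Otud1-/- 2 or 3 (0.0613 and 0.0683) and with edgeR (0.0719). Scaling to epithelial markers gave 1.33 (adjusted p = 0.0033), and quantile normalisation 1.02 (0.053).

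Fads2, the delta-6 desaturase that works in the same pathway, lies 81141 bases from Fads1 on chromosome 19 and was not called. It had 1965, 2575 and 2992 normalised reads against 2721, 1660 and 2839, with Otud1-/- 2 the lowest of all (change -0.08 ± 0.24 SE, limma, adjusted p = 0.89). Within each library the log2 value of Fads1 minus that of Fads2 was -2.29, -2.08 and -2.59 under the wild type label against -1.18, -0.84 and -1.75 under the Otud1-/- label. This difference moves with no scale factor of the library, and the labels did not overlap in it. The pair was chosen after its values were seen, Fads1 alone already separated the labels, and the difference was not tested.

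Me1, malic enzyme, which supplies NADPH for lipid synthesis, had 342, 252 and 266 normalised reads under the wild type label against 367, 739 and 410 under the Otud1-/- label. Otud1-/- 1 was barely above wild type 1, while Otud1-/- 2 was far above the rest (change 0.76 ± 0.26 SE, limma, adjusted p = 0.178; 0.0161 after scaling to epithelial markers). Acacb, the acetyl-CoA carboxylase of the mitochondrial surface, whose malonyl-CoA restrains fatty acid oxidation, had 168, 241 and 232 against 262, 328 and 255. Its groups were separate by a small margin (change 0.41 ± 0.20 SE, limma, adjusted p = 0.292). It was the least abundant member per kilobase of exon.

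The core enzymes of synthesis overlapped between the labels. Fasn, fatty acid synthase, ranged from 3296 to 4963 in wild type and from 4408 to 6184 in Otud1-/- (change 0.25). Acaca, the cytosolic carboxylase that commits acetyl-CoA to fatty acids, had a log2 difference of 0.09. The acetyl-CoA suppliers Acly (-0.19) and Acss2 (-0.16) feed both branches and had negative values. Without both libraries numbered 1, Fasn (-0.08) and Acaca (-0.11) turned negative and Acly was at -0.40.

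Of the elongases and the stearoyl-CoA desaturases, none separated the labels. Scd2 had 21112, 24757 and 29929 normalised reads against 22234, 17481 and 21985 (change -0.29 ± 0.17 SE, limma, adjusted p = 0.368). Scd1 had its highest value in wild type 1, at 3152, where the other 5 libraries lay between 1551 and 2079 (change -0.21). Elovl1, an elongase of very long chains, had 1847, 1753 and 1949 against 1344, 1789 and 1573, overlapping through Otud1-/- 2 (change -0.25 ± 0.13 SE, limma, adjusted p = 0.327). Elovl5 (0.22) and Elovl6 (-0.07), elongases of polyunsaturated and of saturated chains, overlapped as well. Without both libraries numbered 1, Scd1 (0.09) and Elovl6 (0.20) turned positive, and the change was -0.47 for Scd2, -0.35 for Fads2, -0.14 for Elovl1 and 0.03 for Elovl5.

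The mean of the fatty acid enzymes, each gene centred on its own mean over 6 libraries, was 0.07, 0.038 and 0.061 in Otud1-/- 1, 2 and 3. Otud1-/- 2 differed from the other Otud1-/- libraries in some of these genes and not in this mean. It had the highest Elovl6 of its group, 1650 against 711 and 897, the highest Me1 and the lowest Elovl5, 895 against 1435 and 1276. It also had the lowest Fads2 and Scd2, while Fasn (6184) and Fads1 (1203) were highest in Otud1-/- 1. The SD of log2 values within the Otud1-/- label was 0.63 for Elovl6, 0.54 for Me1 and 0.43 for Fads2, while it was at most 0.28 for any sterol enzyme.

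Set against each other within each library, the branches separated the labels. The mean log2 value of the 17 sterol enzymes minus that of the 13 fatty acid enzymes was -0.03, -0.03 and -0.01 in wild type 1, 2 and 3, against -0.51, -0.29 and -0.36 in Otud1-/- 1, 2 and 3. The wild type mean was -0.02 ± 0.01 (SD, n = 3) and the Otud1-/- mean -0.38 ± 0.11 (SD, n = 3), a difference of -0.36. The size of the value in a single library also reflects gene length and has no meaning by itself, so the information lies in the comparison of libraries. No test is given, since the members were chosen with results of these data known. The sterol mean moved by -0.25 and the fatty acid mean by 0.11 between the labels. The fatty acid mean differs in sign from the branch median of -0.07, and Fads1 and Me1 have the largest values in it. Without Msmo1 and Fads1, a choice made after their values were seen, the difference was -0.26, from -0.27, -0.23 and -0.24 under the wild type label against -0.60, -0.41 and -0.51 under the other.

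**Figure D3:**
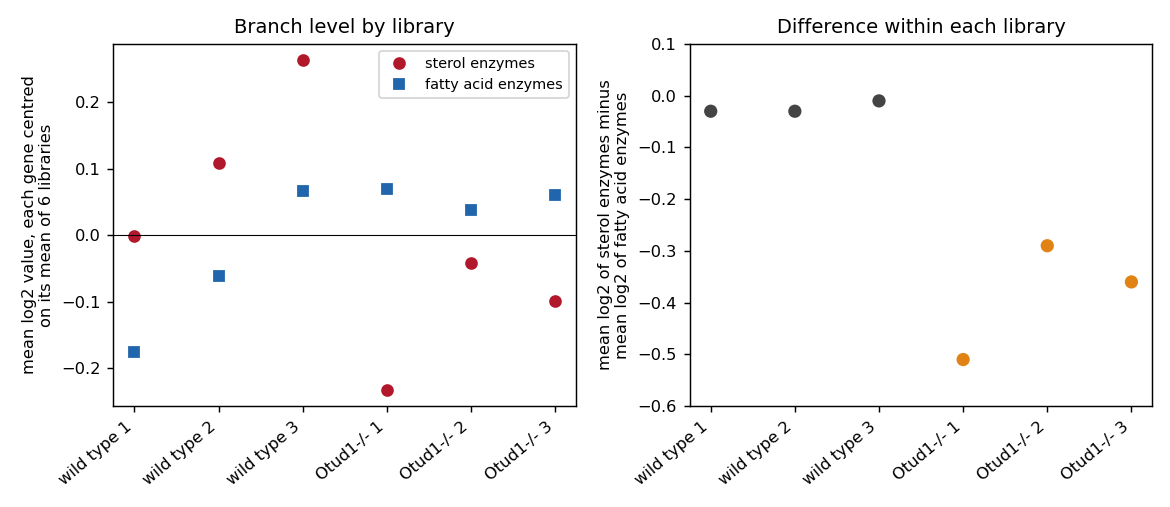
Left, mean log2 value of the 17 sterol enzymes (circles) and the 13 fatty acid enzymes (squares) in each library (x axis), each gene centred on its own mean over 6 libraries. Right, mean log2 of the sterol enzymes minus that of the fatty acid enzymes in each library; the 3 wild type libraries lie between -0.03 and -0.01 and the 3 Otud1-/- libraries between -0.51 and -0.29.

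The direction of single genes depended on the scaling, whereas the difference between the branches did not, since a factor per library cancels in it. With the deposited scaling 15 of 17 sterol changes and 7 of 13 fatty acid changes were negative. With total reads as the scale the median of all genes went from 0.02 to 0.22 and these counts were 8 and 2. With epithelial markers as the scale it went to 0.35 and they were 6 and 0. Relative to the median of all genes the sterol median was -0.21, -0.21 and -0.20 under the 3 scalings and the fatty acid median -0.09, -0.08 and -0.08, which follows by construction. Quantile normalisation, which is not a single factor, gave medians of -0.11 and 0.15. Msmo1, Hmgcs1, Sqle, Fdft1, Ebp and Sc5d were negative under all 4 scalings, and Cyp51 was 0.03 after scaling to epithelial markers. Fads1, Me1 and Acacb were positive under all 4. So were Fasn, Elovl5 and Acaca, whose groups overlapped as deposited, and the sterol genes Idi1 and Lss.

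**Figure D4:**
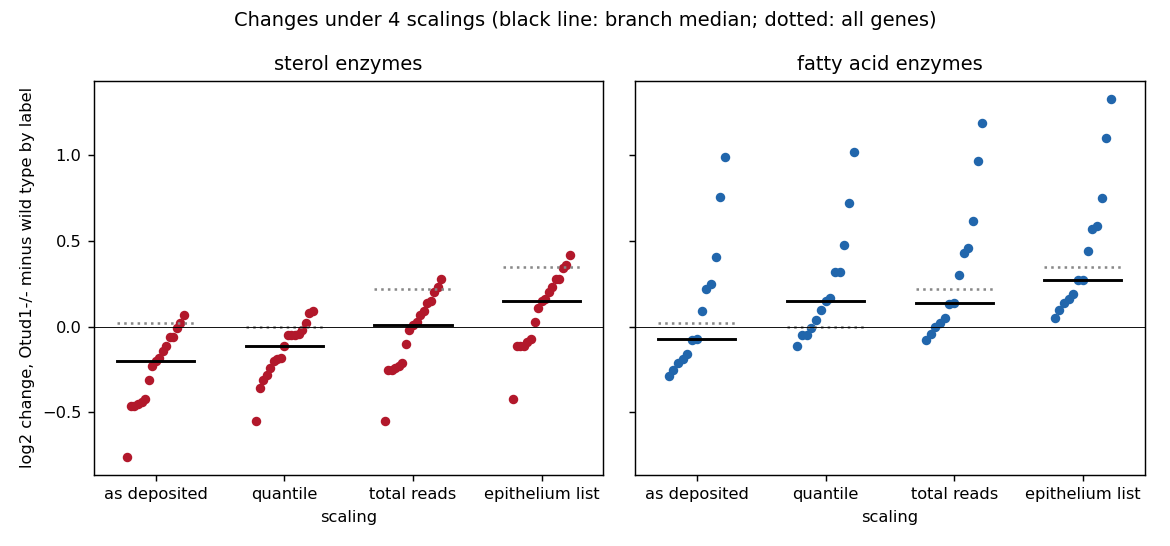
Log2 change (y axis, Otud1-/- minus wild type by label) of each sterol enzyme (left) and fatty acid enzyme (right) under 4 scalings (x axis). Black lines are branch medians and dotted lines the median of all genes; the sterol median is -0.20 as deposited and 0.15 after scaling to epithelial markers, below the dotted line in both.

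Other genes of the pathways, from lists of each pathway, gave 0 calls by limma and by edgeR in each of 4 lists. Their counts stand beside these shares of all genes: 9.5% higher and 9.97% lower at an unadjusted p under 0.05 (limma), 3.98% and 4.42% called by DESeq2, and 13% and 13.3% higher and lower without overlap. In the list of 10 further sterol synthesis genes, 2 were lower at an unadjusted p under 0.05 (limma), DESeq2 called 1 lower, 2 were lower without overlap, and the median change was -0.05. Nus1, a subunit of the enzyme that makes dolichol chains, had a log2 difference of -0.49 and Cyb5a, an electron donor of the desaturases and of Msmo1, one of -0.12.

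Among 10 genes of SREBP processing and sterol-regulated degradation, 4 were lower at an unadjusted p under 0.05 (limma), beside 9.97% of all genes. DESeq2 called 1 lower, beside 4.42% of its genes. Erlin1 and Erlin2 encode partner proteins that restrain SREBP activation and take part in degradation at the endoplasmic reticulum. Erlin1 had 1227, 1270 and 1117 normalised reads against 566, 834 and 902, without overlap (change -0.68 ± 0.17 SE, limma, adjusted p = 0.0919). The log2 difference was -0.31 for Erlin2 and -0.35 for Tmub1, also without overlap. In this list 6 of 10 genes (60.0%) were lower with no overlap, beside 13.3% of all genes and 22.8% of those at least as abundant as the least abundant member, and the median change was -0.21.

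Over 28 genes of sterol uptake, storage and export, 1 was higher and 2 were lower at an unadjusted p under 0.05 (limma). Over all genes these shares were 9.5% and 9.97%. DESeq2 called 1 lower, beside 4.42% of its genes, and the median change was -0.14. Without overlap 1 was higher (3.57%) and 4 were lower (14.3%), beside 13% and 13.3% of all genes. The log2 difference was -0.48 for the transporter gene Abca7 and 0.40 for the cholesterol ester hydrolase gene Nceh1, which was the 1 higher gene.

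In the list of 33 further fatty acid and glyceride genes, 32 were tested. At an unadjusted p under 0.05 (limma) 4 were higher and 5 lower, beside 9.5% and 9.97% of all genes. DESeq2 called 1 in each direction, where it called 3.98% of its genes higher and 4.42% lower. Without overlap 7 were higher (21.9%) and 5 lower (15.6%), beside 13% and 13.3% of all genes. The median change was 0.16, with 22 positive and 10 negative. Mlxipl encodes ChREBP, the sugar-responsive activator of fatty acid synthesis, and Mlx encodes its partner. Their values lay in opposite directions, neither past the test. Mlxipl had 156, 129 and 184 normalised reads against 232, 294 and 345 (change 0.89 ± 0.21 SE, limma, adjusted p = 0.0803), and Mlx had 3062, 2917 and 2803 against 1397, 1863 and 2121 (change -0.73 ± 0.15 SE, limma, adjusted p = 0.0611). Neither pair of groups overlapped. Hsd17b12, the ketoreductase of fatty acid elongation, had a log2 difference of -0.43.

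Per kilobase of exon, Scd2 was the most abundant member, with a mean of 4190 normalised reads per kilobase over the 6 libraries, followed by Hmgcs1 (1220) and Mvd (920). Fdft1, Srebf2 and Cyp51 came next at 854, 808 and 758. Scd2 exceeded all the others in every library, while neighbours from Hmgcs1 to Cyp51 overlapped between libraries. The lowest were Lss (91.1), Acaca (56.1) and Acacb (25.7), whose ranges over libraries did not overlap. Exon length counted the bases of all annotated exons of a gene, 10787 for Lss, so the ranks depend in part on the gene models. In this order of 36 the sterol enzymes that were lower without overlap ranked 2 (Hmgcs1), 4 (Fdft1), 6 (Cyp51), 10 (Msmo1), 11 (Ebp), 15 (Sqle) and 19 (Sc5d), and the fatty acid enzymes that were higher ranked 28 (Fads1), 31 (Me1) and 36 (Acacb). Among these separated enzymes the lower ones were thus the more abundant per kilobase. Stard4 and Insig2, also lower without overlap, ranked 16 and 24, while Scd2 and Mvd, ranked 1 and 3, overlapped. Among all genes at least as abundant as the least abundant member, lower values without overlap were also the more frequent (22.8% against 10.7% higher). That cut used mean normalised reads, not reads per kilobase. The part of abundance in the branch contrast was not tested.

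Markers of the cell types in the tissue moved with the labels too. The pan-epithelial list, all 15 of whose genes had reads, summed to 484080 to 573900 normalised reads in wild type and 311350 to 460040 in Otud1-/-. Its mean log2 value was 14.15, 14.08 and 14.28 under the wild type label against 13.60, 14.13 and 13.75 under the Otud1-/- label. By this mean Otud1-/- 2 lay within the wild type range, and by the sum all 3 Otud1-/- libraries lay below it. The part of epithelial content in the changes was not tested.

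Summed levels of goblet cell markers (9 of 9 genes with a row) were 249240 to 265330 in wild type and 97975 to 111690 in Otud1-/-, and those of macrophage markers (12 of 12) 15568 to 19219 and 10248 to 11213. Smooth muscle markers (12 of 12) summed to 37694 to 41709 and 61831 to 126310, stem cell markers (8 of 9) to 1300 to 3702 and 5361 to 15905, and proliferation markers (14 of 14) to 9879 to 11802 and 12189 to 16710. T cell (10 of 10), B and plasma cell (8 of 8), fibroblast (8 of 8) and endothelial markers (7 of 7) overlapped between the labels in their sums. The part of these cell types in the results was not tested.

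Adipocytes and sebaceous cells are rich in fatty acid enzymes. Of 12 adipocyte markers 7 could be analysed, summing to 1232 to 1747 normalised reads in wild type and 1531 to 2130 in Otud1-/-. Cfd, adipsin, was at 0 in all wild type libraries, against 11.9, 2.25 and 11.1 in those labelled Otud1-/-, and Plin4, a lipid droplet coat protein, rose (change 1.28, limma, adjusted p = 0.0449). Adrb3 was also higher without overlap (0.87), while Fabp4 (-0.08), Lipe (-0.26), Cidec (-0.15) and Pck1 (0.23), overlapped. Adipoq, Plin1, Lep, Retn and Aqp7 had no row by symbol in the table, where every gene has at least 10 reads in total. Of 13 sebocyte and skin markers 8 could be analysed, summing to 217 to 460 in wild type and 390 to 1347 in Otud1-/-. Among them Scd3, a stearoyl-CoA desaturase, had 1.05, 5.64 and 8.16 against 29.0, 12.4 and 21.2. Awat2 (1.38) and Cidea (1.99) were also higher without overlap, at low values, and the other 5 overlapped. The limma adjusted p was 0.132 for Scd3, 0.161 for Awat2 and 0.163 for Cidea. Cidea had 1.05, 0.94 and 0 against 10.2, 4.5 and 3.03. Most of the highest sum, that of Otud1-/- 1, was Krt14 (1119), which overlapped between the labels. The part of either cell type in the values of Fads1, Me1 and Acacb was not tested.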

How the data were processed

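Per the labels' protocols, RNA came from tumour-adjacent distal colon by Trizol. The submitters' processing notes name mm10; aligner, counter, strand setting and annotation are not given in the sources read. The deposited signal is a normalised read count: 100% of values were whole multiples of 1 step per library (tolerance 0.001 of a read), which gave whole reads for the count tests. IDs were matched to GENCODE vM21 (21317 of 21374). The filter asked for a value of 1 or more in 3 or more libraries, and the 21281 genes left were tested with limma 3.58.1 (R 4.3.3; trend and robust) on log2(value + 1), genotype as the only term, two-sided, Benjamini-Hochberg over all genes. This scale understates changes of low genes. All 36 members passed the filter. Alternatives included edgeR 4.0.16, DESeq2 1.42.0, other scalings and omitted libraries, and the procedures were tested on simulated data. There, with 3 against 3 libraries, limma recovered 39% of 2-fold and 88% of 4-fold changes at an adjusted p under 0.05. Unchanged genes made up 11.8% of the limma calls, 12.1% of the edgeR calls and 21.8% of the DESeq2 calls.

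The members and gene lists were chosen with earlier results of these data known. Values by library are given for called members, regulators, Stard4 and the 5 smallest p of each branch, and up to 3 genes per other list are named; other values were chosen after they were seen. Some genes of these lists that the rule would name are not reported here.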

Additional observations from a re-analysis of the deposited data

How the results depend on the processing

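Of the 36 members, the number called higher (1 with the reported settings) was 0 with a filter at a mean of 5, a pseudocount of 0.1, quantile normalisation, limma without trend and robust, edgeR with either scaling or the replicate block, 2 after scaling to the epithelium list, and 0 to 1 when single libraries were left out. The number called lower (1) was 0 after quantile normalisation or scaling to the epithelium list, with limma without trend and robust, edgeR with either scaling or the replicate block, 2 with sample weights or a threshold of 0.1, 3 with DESeq2, and 0 to 1 when single libraries were left out. The median change of the sterol enzymes (-0.20) was 0.01 with total reads as the scale, 0.15 with the epithelium list, -0.11 after quantile normalisation and -0.30 (without wild type 1) to -0.07 (without wild type 3) when single libraries were left out. That of the fatty acid enzymes was 0.15 after quantile normalisation, 0.14 with total reads and 0.27 with the epithelium list as the scale, 0.09 without Acly and Acss2, and -0.05 to 0.16 without single libraries. The difference between the branches was -0.45 with medians over genes and -0.26 without Msmo1 and Fads1, and -0.41 to -0.30 without single libraries. Settings that change only the test or the filter leave it as it is by construction and were not run for it. Sterol enzymes that were lower with no overlap numbered 2 after scaling to the epithelium list (2.63% of all genes) and 11 without both libraries numbered 1 (21.6% of all genes), alternatives chosen after the data were seen. The cause of these shifts was not tested.

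Over all genes, 202 were called with the reported settings, 122 with a filter at a mean of 5, 118 with a pseudocount of 0.1, 413 with total reads and 936 with the epithelium list as the scale, 564 with sample weights, 62 and 65 with edgeR, 1412 with DESeq2, 18 with the replicate block, 394 without both libraries numbered 1 and 10 to 340 without single libraries. With limma without trend and robust it was 0. Over single members and alternatives, 694 values kept their side of the threshold, 22 lost a call, 4 gained one, and no called gene changed sign. Same-numbered libraries of the labels did not deviate together (correlations of -0.264, -0.10 and -0.0877 for numbers 1, 2 and 3). No library correlated best with its own number. Deviations within a label of 3 libraries are not independent, so these correlations cannot exclude a pairing or a shared handling of same-numbered libraries. Having 3 libraries per label limits what small changes can pass.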
